A study of Mus musculus with 36 samples.

Results

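Kidneys of leptin-deficient ob/ob mice (ob) and of normal C57BL/6 mice (b6j) were compared directly at 2 mg/kg CdCl2, the highest cadmium dose of the series. The comparison took the 12 libraries labelled with that dose, 6 ob and 6 b6j, out of 36 libraries from both genotypes at 0, 0.5 and 2 mg/kg. All annotated genes were read, with no selection by level or change. The labels give C57BL/6 as the strain of every mouse and kidney as the tissue, and they state neither route, duration, sex nor age. The 12 untreated kidneys, 6 of each genotype, served as the reference for the difference between genotypes before cadmium. The series concerned renal damage from cadmium that accumulates over time, and this comparison asks how the obese and the normal kidney differ once both carry the high dose.

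Cadmium reaches the kidney largely bound to metallothionein, a small cysteine-rich protein whose genes are switched on by the metal, and it collects in the cells of the proximal tubule. These cells take up filtered proteins, export organic anions and cations and burn fatty acids, and injured ones lose such functions and express repair and injury genes. The ob mutation inactivates leptin, the hormone of fat cells that limits food intake, so that ob mice become obese and insulin resistant, and their sex hormones and growth hormone signalling are disturbed. Many transcripts of the mouse proximal tubule depend on androgen, which makes that tubule differ between the sexes.

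The 12 libraries held 26783936 to 34237927 counted reads, and 18180 of 55536 genes were tested. Levels are TMM-scaled CPM, a gene's counts relative to its library's total, and 3 reads were worth 0.0851 to 0.11 CPM. Proximal tubule genes were abundant in 11 libraries and far lower in ob replicate 5. Lrp2, the megalin receptor of the proximal tubule, ranged over 1850.0 to 2711 CPM in the other 5 ob kidneys and 2245 to 3204 CPM in b6j, against 293 CPM in ob replicate 5. Slc34a1, the phosphate cotransporter of the same cells, stood at 16.6 CPM there and at 3024 to 4451 CPM in the other ob kidneys. That library was alone on the first principal component (66.4% of the variance), at 89.08 against -15.82 to 2.21 for the other 11, and it had the highest value of the 12 at 5864 genes and the lowest at 6478. Results are therefore given with and without it. Smaller deviations lay in 3 b6j libraries and among the other 5 ob libraries. Library b6j replicate 5 was the highest of the 12 libraries at 21 of 23 liver genes. Adrenal transcripts were carried by b6j replicate 3. Cyp11b1, the last enzyme of corticosterone synthesis, read 13.8 CPM there, 0.56 CPM in ob replicate 5 and 0 in the other 10. Library b6j replicate 2 held more fat transcripts than the others (Cfd, the adipocyte serine protease adipsin, at 113.5 CPM). Among the other 5 ob kidneys the summed level of 15 lymphocyte markers reached 274.9 CPM. It was 30.3 to 81.1 CPM in b6j, and the median of all ob kidneys was 42.0 CPM.

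Genes were called at an adjusted p below 0.05 in edgeR's quasi-likelihood test with Benjamini-Hochberg adjustment, and differences are log2 ratios of ob over b6j ± standard error. With all 12 libraries 2987 genes were called, 16.4% of those tested, 1437 higher (7.9%) and 1550 lower (8.53%) in ob. Without ob replicate 5, 2795 of 18380 genes were called (15.2%), 1161 higher (6.32%) and 1634 lower (8.89%). These shares of all genes are the background for the list counts of the same fits below. Both fits called 2043 genes in 1 direction (11.2%), 774 higher (4.26%) and 1269 lower (6.98%), of which 265 differed more than 2-fold in both. These fits take the spread from all 6 groups of the series. With the spread taken from the 2 groups alone, 461 genes were called with ob replicate 5 and 2216 without it, and 453 genes (150 higher, 303 lower) were called in all 4 fits. The 461 were 156 higher and 305 lower of 16817 tested, and the 2216 were 906 higher and 1310 lower of 17034. List counts from the 2 groups alone have these lower counts as their background, not the shares given above. With libraries scaled by size only, 59% of the calls were higher in ob in place of 48.1%. The labels give replicate numbers and do not say that each is a separate animal, so p-values measure the spread between these samples only.

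Metallothionein, the main cadmium-binding protein, was higher in ob. Mt1 (chr8:94179082-94180327, GRCm38), one of the isoforms made in most tissues, read 3942, 4312 and 5414 CPM (lowest, median and highest of 6) in ob and 2483, 2889 and 3873 CPM in b6j. All 6 ob kidneys lay above every b6j kidney, and the difference was 0.53 ± 0.13 (adjusted p = 0.00535), and 0.47 ± 0.13 (adjusted p = 0.00989) without ob replicate 5. Mt2, its neighbour of the same family, read 26.03, 28.9 and 38.6 CPM in ob and 13.6, 18.2 and 26.1 CPM in b6j, with 5 of 6 ob kidneys above the b6j range. It differed by 0.70 ± 0.20 (adjusted p = 0.0146), and 0.73 ± 0.19 (adjusted p = 0.00698) without ob replicate 5. Reads of such close relatives can be shared between them. Of 3 metallothioneins tested 2 were called, both with and without ob replicate 5, and the third, Mt3, the brain form, differed by 0.23 ± 0.44 (adjusted p = 0.776), and -0.09 ± 0.44 (adjusted p = 0.925) without ob replicate 5. Before cadmium Mt1 did not differ between genotypes beyond its spread, at medians of 106 CPM in ob and 113 CPM in b6j (-0.06 ± 0.13, adjusted p = 0.837). The change of the difference was 0.58 ± 0.19 (adjusted p = 0.0948, and 0.0893 without ob replicate 5) and missed the threshold. In the fit of the 12 libraries alone Mt1 reached an adjusted p of 0.0546.

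Metallothionein promoters carry metal response elements, which bind the zinc-sensing factor MTF1, and they are shown because Mt1 and Mt2 moved together. The windows run from 220 bases before to 30 after the RefSeq start (GRCm38.p6, plus strand, chr8:94178869-94179118 for Mt1 and chr8:94172398-94172647 for Mt2), and capitals mark every match to the element core TGCACNC or TGCGCNC on either strand.
Mt1: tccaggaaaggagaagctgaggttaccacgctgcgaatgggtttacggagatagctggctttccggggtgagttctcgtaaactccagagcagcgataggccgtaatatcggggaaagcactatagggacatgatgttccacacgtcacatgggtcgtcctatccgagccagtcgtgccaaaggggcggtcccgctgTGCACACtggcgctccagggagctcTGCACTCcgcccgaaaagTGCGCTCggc
Mt2: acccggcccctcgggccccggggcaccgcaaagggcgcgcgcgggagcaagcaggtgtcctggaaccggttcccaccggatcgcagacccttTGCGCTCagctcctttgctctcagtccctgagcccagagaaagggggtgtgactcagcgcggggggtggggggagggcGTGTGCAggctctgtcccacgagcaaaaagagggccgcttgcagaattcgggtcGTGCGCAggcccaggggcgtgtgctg
Each window held 3 matches. The window of Mt3 held 0 and that of Mt4 held 1, and 22.2% of 32851 promoter windows of the same length held at least 1. A match describes these letters only.

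Lower in ob, in fits over all groups, were 3 metal carriers. Slc39a8 (chr3:135825279-135888572), a plasma membrane importer of zinc and manganese that also carries cadmium, read 10.6, 24.4 and 30.96 CPM in ob and 55.6, 73.5 and 78.5 CPM in b6j. Every ob kidney lay below every b6j kidney, with a difference of -1.59 ± 0.18 (adjusted p = 1.13e-07), and -1.43 ± 0.15 (adjusted p = 1.39e-08) without ob replicate 5. The call was made in all 4 fits. In untreated kidneys no difference passed the test, at medians of 65.4 CPM in ob and 68.8 CPM in b6j (-0.03 ± 0.17, adjusted p = 0.941). The change of the difference was -1.56 ± 0.25 (adjusted p = 4.3e-04, and 5.92e-05 without ob replicate 5). Slc11a2, the iron importer DMT1, which also moves cadmium, was lower in 5 of 6 than in any b6j kidney (-0.53 ± 0.12, adjusted p = 0.00216, without ob replicate 5 -0.39 ± 0.07, adjusted p = 2.89e-04). Slc30a5, a zinc transporter of the secretory pathway, was lower in 5 of 6 too (-0.37 ± 0.09, adjusted p = 0.00337, without ob replicate 5 -0.27 ± 0.07, adjusted p = 0.0041). In the 2 groups alone Slc11a2 and Slc30a5 were not called with ob replicate 5 (adjusted p = 0.14 and 0.127). Of 21 zinc and iron genes 2 were called higher and 3 lower with ob replicate 5, beside 7.9% and 8.53% of all genes. Without it 3 and 3 were called, and 1 and 3 in both. The 2 groups alone gave 0 and 1, and 2 and 4 without that library. Their median difference was 0.07 beside 0.03 for all genes. Hmox1, the heme oxygenase induced by cadmium and oxidants, read 1007, 1361 and 2079 CPM in ob and 904, 1332 and 1829 CPM in b6j. The ranges overlapped and the difference was 0.12 ± 0.16 (adjusted p = 0.666), and 0.21 ± 0.16 (adjusted p = 0.409) without ob replicate 5.

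The 12 largest differences in each direction were taken from genes called with and without ob replicate 5 at a mean of at least 5 CPM. The lower 12 held 4 organic ion carriers of the proximal tubule, Slc22a7, Slco1a1, Slc22a19 and Slc22a26. Slc22a7 (chr17:46432183-46438457), the organic anion transporter OAT2, read 0.374, 1.56 and 2.80 CPM in ob and 59.5, 76.2 and 98.2 CPM in b6j. The ranges were far apart, and the difference was -5.67 ± 0.36 (adjusted p = 3.6e-13), and -5.46 ± 0.34 (adjusted p = 8.52e-14) without ob replicate 5. Slco1a1 (chr6:141907282-141946962), an organic anion and steroid conjugate transporter, read 0.748, 5.39 and 13.2 CPM against 109.7, 228 and 414 CPM, a difference of -5.24 ± 0.49 (adjusted p = 2.34e-09), and -5.004 ± 0.46 (adjusted p = 5.12e-10) without ob replicate 5. Cyp7b1 (chr3:18071950-18243338), the oxysterol and steroid 7-alpha hydroxylase, read 2.03, 12.9 and 17.98 CPM against 139, 209.6 and 254 CPM, a difference of -4.04 ± 0.31 (adjusted p = 3.08e-11), and -3.81 ± 0.25 (adjusted p = 1.98e-13) without ob replicate 5. Acsm3, a medium-chain acyl-CoA synthetase, read 5.33, 44.1 and 66.2 CPM against 278, 413 and 679.6 CPM, a difference of -3.32 ± 0.33 (adjusted p = 7.16e-09), and -3.08 ± 0.23 (adjusted p = 4.54e-12) without ob replicate 5. In these 4 genes no ob kidney reached the b6j range, and all 4 were called in every fit. Prok1, a secreted ligand that acts on endothelial cells, differed by -3.16, C8a, a complement component, by -3.13 and Ceacam2, a cell adhesion molecule, by -2.53, each with the 6 ob kidneys below every b6j kidney.

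The calls of 3 of the 12 lower genes depended on 1 b6j library. Serpina1e, a protease inhibitor made by the liver, read up to 59.5 CPM in b6j replicate 5 and differed by -5.04 ± 1.09, and without that library by -1.50 (adjusted p = 0.191). Mup20 and Mup3, major urinary proteins also made by the liver, differed by -4.21 and -3.65, and without b6j replicate 5 by -0.40 (adjusted p = 0.839) and -0.22 (adjusted p = 0.894). None of the 3 was called with voom, and in the 2 groups alone Serpina1e was called only without ob replicate 5 and the others in neither fit. The summed level of 23 liver genes was 2077 CPM in that library and 302.8 to 788 CPM in the other 11.

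In the higher direction several of the 12 were high in ob replicate 5 above all. Lcn2, the iron-siderophore carrier NGAL and a marker of tubular injury, read 13.9, 19.9 and 1558 CPM in ob and 10.7, 14.2 and 16.9 CPM in b6j. The difference was 4.29 ± 0.79 (adjusted p = 2.62e-04), and 0.63 ± 0.20 (adjusted p = 0.0237) without ob replicate 5. Its highest value, 1558 CPM, was that of replicate 5, and the other 5 ob kidneys held 13.9 to 37.2 CPM. In the 2 groups alone Lcn2 was called neither with that library (adjusted p = 0.0886) nor without it (adjusted p = 0.0597). Tnnt2, cardiac troponin T, went from 4.07 to 1.15 without it, Txnip, which binds thioredoxin and restrains glucose uptake, from 2.10 to 0.72, and Hcn3, a pacemaker ion channel, from 2.27 to 0.81. These 3 were called in the 2 groups alone only without replicate 5. Others stood out in all or nearly all ob kidneys. Ugt1a2, a UDP-glucuronosyltransferase, read 10.03, 111 and 160.3 CPM against 12.8, 15.5 and 21.7 CPM, with 5 ob kidneys above the b6j range and replicate 5 below it. It differed by 2.64 ± 0.46 (adjusted p = 1.39e-04), and 2.89 ± 0.37 (adjusted p = 4.28e-07) without ob replicate 5. Abcc3 (chr11:94343295-94392997), an efflux pump for conjugates, read 15.9, 24.8 and 73.2 CPM against 5.90, 8.11 and 10.8 CPM. All 6 ob kidneys were above every b6j kidney (1.97 ± 0.25, adjusted p = 1.17e-06, without ob replicate 5 1.55 ± 0.19, adjusted p = 1.92e-07). Cyp27b1, the enzyme that activates vitamin D, read 5.43, 8.29 and 18.8 CPM against 1.76, 1.91 and 3.22 CPM, also without overlap (2.05 ± 0.50, adjusted p = 0.00417, without ob replicate 5 1.74 ± 0.49, adjusted p = 0.0126). Cyp26b1, which degrades retinoic acid, was higher by 2.46 ± 0.58 (adjusted p = 0.00345), and 1.90 ± 0.55 (adjusted p = 0.0149) without ob replicate 5, and was not called with voom (1.98, adjusted p = 0.0923). Across all tested genes the 6 ob kidneys lay above every b6j kidney at 295 genes (1.62%) and below every one at 647 (3.56%).

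**Figure D1:**
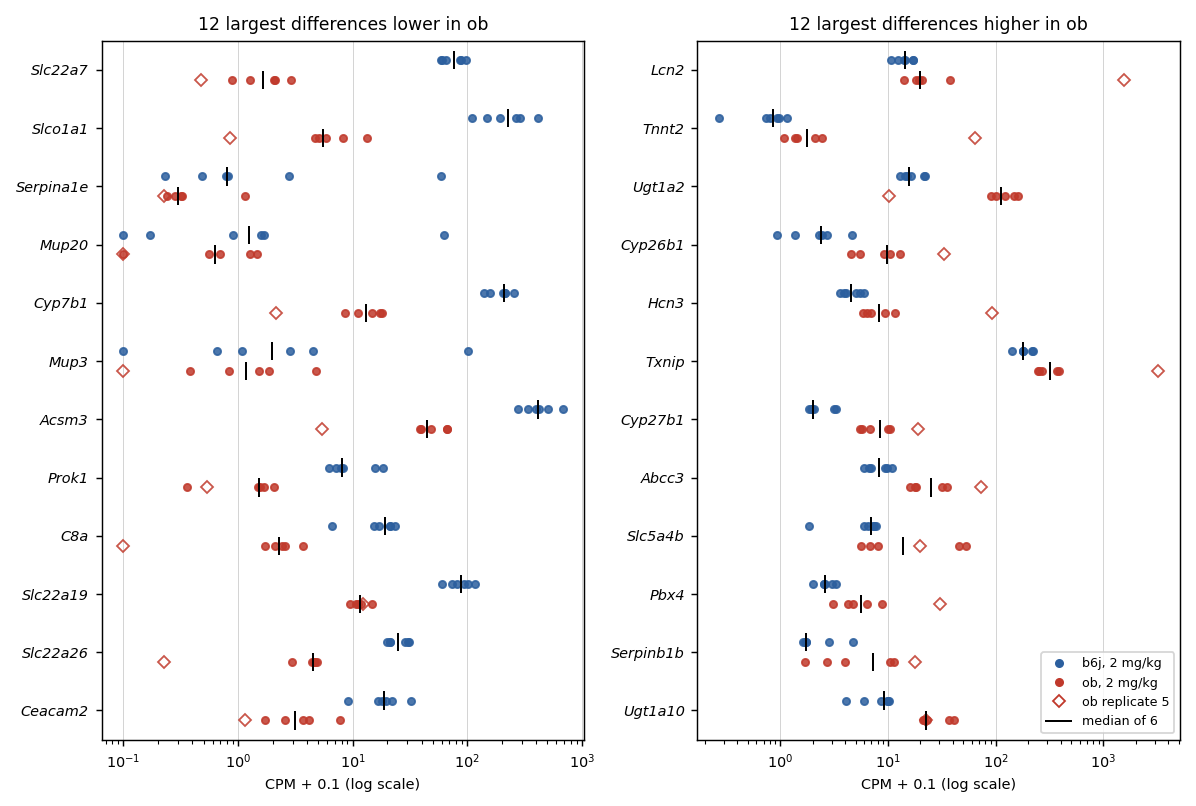
Levels of the 12 genes with the largest lower (left) and higher (right) difference in ob at 2 mg/kg, as CPM + 0.1 on a log axis; each point is 1 kidney, bars are medians of 6, and the open diamond is ob replicate 5. Slc22a7 is separated in all kidneys, the 3 liver genes Serpina1e, Mup20 and Mup3 rest on 1 b6j kidney, and Lcn2 reaches 1558 CPM in ob replicate 5 alone.

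Organic ion transport, by which the proximal tubule secretes drugs, toxins and conjugates into the urine, had more genes called lower than higher in ob. Of 29 carriers and efflux pumps 3 were called higher and 12 lower with ob replicate 5, 7 and 12 without it, and 2 and 11 in both. The median difference was -0.35 (-0.17 without that library) beside 0.03 for all genes. The 2 groups alone gave 1 higher and 7 lower, and 3 and 12 without ob replicate 5. Before cadmium 6 of the 29 were called higher and 8 lower, with a median of -0.10, beside 6.6% and 8.93% of all genes. The change of the difference was called for 0 upward and 5 downward, or for 3 and 7 without ob replicate 5. Beside Slc22a7 and Slco1a1 the lower genes included Slc22a19, an organic anion transporter, at 9.35, 11.4 and 14.5 CPM against 59.8, 87.8 and 116 CPM (-2.92 ± 0.22, adjusted p = 3.08e-11, without ob replicate 5 -2.92 ± 0.23, adjusted p = 2.79e-11). Library ob replicate 5 did not stand apart there, and every ob kidney was below every b6j kidney. Slc22a26, of the same family, read 0.125, 4.44 and 4.82 CPM against 19.8, 24.9 and 31.1 CPM (-2.84 ± 0.33, adjusted p = 1.89e-07, without ob replicate 5 -2.57 ± 0.21, adjusted p = 7.29e-11). Slco3a1, a prostaglandin and thyroid hormone carrier, was lower in every ob kidney as well (-0.71 ± 0.10, adjusted p = 4.29e-06, without ob replicate 5 -0.65 ± 0.10, adjusted p = 5.42e-06). The entry carriers of the classical organic anion pathway gave other values. Slc22a6 (OAT1) differed by -0.32 ± 0.17 (adjusted p = 0.203), and -0.13 ± 0.10 (adjusted p = 0.443) without ob replicate 5. Slc22a8 (OAT3) differed by 0.29 ± 0.30 (adjusted p = 0.558), and 0.53 ± 0.16 (adjusted p = 0.0208) without ob replicate 5, and was called higher only without replicate 5, which held 42.9 CPM of it. Among the pumps, Abcg2, which exports urate and drugs, was higher by 0.40 ± 0.11 (adjusted p = 0.00841), and 0.21 ± 0.06 (adjusted p = 0.0102) without ob replicate 5. It was not called in the 2 groups alone, with that library (adjusted p = 0.2) or without it (adjusted p = 0.071). Reads of close relatives in the Slc22a and Slco1a families can be shared, and the counting ignored strand.

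Androgen-dependent transcripts that were called were all lower in ob. Of 12 genes 9 were called lower and 0 higher with ob replicate 5, 10 and 0 without it, and 9 in both. The median was -1.47 (-1.38 without it). The 2 groups alone gave 5 lower and 0 higher, and 8 and 0 without ob replicate 5. Cyp7b1, Slco1a1 and Acsm3, given above, belong to it. Kap, the androgen-regulated kidney protein and one of the most abundant proximal tubule transcripts, read 329, 3478 and 7529.7 CPM in ob and 11421, 14964 and 18869 CPM in b6j. All ob kidneys were below the b6j range (-1.91 ± 0.34, adjusted p = 1.39e-04, without ob replicate 5 -1.66 ± 0.21, adjusted p = 4.06e-07). Gusb, the lysosomal beta-glucuronidase, read 27.5, 29.3 and 35.7 CPM against 51.8, 62.7 and 73.3 CPM with no overlap and little spread (-1.05 ± 0.10, adjusted p = 2.09e-09, without ob replicate 5 -1.10 ± 0.10, adjusted p = 3.22e-10). Odc1, the first enzyme of polyamine synthesis, was lower in every ob kidney (-1.13 ± 0.22, adjusted p = 4.71e-04, without ob replicate 5 -0.94 ± 0.17, adjusted p = 1.1e-04). Cyp4a12a, a fatty acid hydroxylase, was too (-1.80 ± 0.25, adjusted p = 3.42e-06, without ob replicate 5 -1.92 ± 0.25, adjusted p = 7.66e-07), as was Slc7a13, an aspartate and glutamate carrier of the late proximal tubule (-2.31 ± 0.48, adjusted p = 9.14e-04, without ob replicate 5 -2.04 ± 0.20, adjusted p = 2.68e-09). Kap, Odc1 and Slc7a13 were called in the 2 groups alone only without ob replicate 5, at adjusted p of 0.0557 to 0.127 with it. In untreated kidneys the list had 9 of 12 called lower (8.93% of all genes being called lower there) and a median of -1.27.

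Genes described as higher in female mouse kidney did not move as a block. Of 7, 3 were called higher and 2 lower with ob replicate 5, 4 and 2 without it, and 2 and 2 in both, and the 2 groups alone gave 1 and 2, and 3 and 2 without that library. The median was 0.88 (0.75 without it). Before cadmium 5 of the 7 were called higher and 2 lower, with a median of 1.77, beside 6.6% and 8.93% of all genes. The change of the difference was called downward for 2, or for 4 without ob replicate 5, and upward for 0. Akr1c18, a progesterone-inactivating steroid dehydrogenase, read 0, 0.0662 and 0.229 CPM in ob, around the worth of 3 reads, and 4.93, 7.72 and 13.7 CPM in b6j. No ob kidney reached the b6j range (-6.12 ± 0.48, adjusted p = 3.08e-11, without ob replicate 5 -5.98 ± 0.51, adjusted p = 1.08e-10). The fitted size of a ratio this close to 0 depends on the small count the model adds. Prlr, the prolactin receptor, read 11.3, 28.2 and 43.8 CPM against 8.02, 15.98 and 20.9 CPM, with 5 of 6 ob kidneys above the b6j range and replicate 5 within it. The difference was 0.92 ± 0.31 (adjusted p = 0.0394), and 1.09 ± 0.29 (adjusted p = 0.00699) without ob replicate 5. Its call at 2 mg/kg was lost when ob replicate 2, 4 or 6 or b6j replicate 2, 5 or 6 was left out, at adjusted p of 0.0524 to 0.0924, and in the 2 groups alone with ob replicate 5 (adjusted p = 0.123). In growth hormone signalling Ghr, the receptor, read 123, 382 and 487 CPM against 608, 817 and 919.9 CPM, lower in every ob kidney (-1.17 ± 0.18, adjusted p = 1.95e-05, without ob replicate 5 -0.98 ± 0.12, adjusted p = 1.75e-07). Cish, a feedback inhibitor that the growth hormone pathway induces, was called lower only without ob replicate 5 (-1.05 ± 0.43, adjusted p = 0.0893, without ob replicate 5 -1.47 ± 0.43, adjusted p = 0.0149). Lep, the mutated hormone gene, read 0, 1.998 and 3.78 CPM in ob and 0, 0.231 and 0.320 CPM in b6j, with 5 of 6 ob kidneys above the b6j range (3.35 ± 1.03, adjusted p = 0.0224, without ob replicate 5 3.51 ± 1.02, adjusted p = 0.0154). Its call was lost with voom (2.92, adjusted p = 0.37) and without b6j replicate 4 (3.08, adjusted p = 0.0521), and the filter left it out of the fit of the 2 groups alone. The ob allele alters the coding sequence, so this level does not check the genotype. The summed level of 11 fat genes was 52.3 to 199 CPM in ob and 73.6 to 408 CPM in b6j, and its part in the level of Lep was not tested.

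More proximal tubule genes were called lower than higher in ob. Of 35, 2 were called higher and 16 lower with ob replicate 5, beside 7.9% and 8.53% of all genes. Without it 7 and 17 were called, and 2 and 15 in both. The median was -0.34 (-0.22 without it), and the 2 groups alone gave 0 and 3, and 6 and 14 without that library. Before cadmium 2 of the 35 were called higher and 13 lower, with a median of -0.25, beside 6.6% and 8.93% of all genes. The change of the difference was called for 0, or for 2 upward and 3 downward without ob replicate 5. The summed level of the 35 genes was 35778 to 51453 CPM in b6j, 24624 to 35117 CPM in the other ob kidneys and 6053 CPM in ob replicate 5. In bulk tissue fewer cells of a type and less RNA per cell cannot be told apart, and the part of that low tubule level in other results was not tested. Napsa, an aspartic protease of the tubule, read 304, 419.7 and 604 CPM against 756, 1003 and 1115 CPM (-1.11 ± 0.13, adjusted p = 1.08e-07, without ob replicate 5 -1.02 ± 0.11, adjusted p = 4.37e-08). Slc27a2, a fatty acid transporter and activating enzyme, read 829, 1181 and 1888 CPM against 1915, 2684 and 3009.8 CPM (-0.98 ± 0.13, adjusted p = 1.23e-06, without ob replicate 5 -0.87 ± 0.11, adjusted p = 2.47e-07). Keg1, a glycine acyltransferase-like protein, was lower too (-1.41 ± 0.26, adjusted p = 3.14e-04, without ob replicate 5 -1.17 ± 0.13, adjusted p = 4.04e-08). In these 3 genes every ob kidney was below every b6j kidney. Cubn, the partner of megalin in protein uptake, was lower in 4 of 6 than in any b6j kidney (-0.57 ± 0.16, adjusted p = 0.0133, without ob replicate 5 -0.39 ± 0.09, adjusted p = 0.00318). Lrp2 itself was called only without ob replicate 5 (-0.56 ± 0.23, adjusted p = 0.0893, without ob replicate 5 -0.33 ± 0.09, adjusted p = 0.0131). Slc34a1 was called in neither fit (-0.33 ± 0.42, adjusted p = 0.643, without ob replicate 5 -0.06 ± 0.09, adjusted p = 0.711). Keg1 and Cubn were not called in the 2 groups alone with ob replicate 5 (adjusted p = 0.0777 and 0.213).

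Further along the nephron, 3 of 11 thick ascending limb genes were called lower and 0 higher, beside 8.53% and 7.9% of all genes. The counts were the same without ob replicate 5 (median -0.45, and -0.23 without it). In the 2 groups alone 0 were called, and 4 lower without that library. Their summed level was 4468 to 6972 CPM in b6j, 3667 to 4572 CPM in the other ob kidneys and 1378 CPM in ob replicate 5. Umod, uromodulin, the most abundant protein of normal urine, read 983, 1721 and 2048 CPM against 1888, 2452 and 3086 CPM, with 5 of 6 ob kidneys below the b6j range (-0.63 ± 0.16, adjusted p = 0.00699, without ob replicate 5 -0.50 ± 0.15, adjusted p = 0.0172). Egf, the epidermal growth factor, read 17.6, 608 and 747 CPM against 776, 1149 and 1313 CPM, lower in every ob kidney (-1.04 ± 0.34, adjusted p = 0.032, without ob replicate 5 -0.78 ± 0.12, adjusted p = 1.34e-05). In the 2 groups alone Umod and Egf were called only without ob replicate 5 (adjusted p = 0.0704 and 0.305 with it). The call of Egf was lost when b6j replicate 1, 3, 4 or 6 was left out, at adjusted p of 0.0539 to 0.0635. In untreated kidneys neither passed the test, at -0.02 ± 0.16 (adjusted p = 0.968) for Umod and -0.14 ± 0.34 (adjusted p = 0.834) for Egf, and the change of the difference was not called for Umod (adjusted p = 0.153, and 0.195 without ob replicate 5) and called for Egf only without that library (adjusted p = 0.334, and 0.021).

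Lipid synthesis genes called at 2 mg/kg differed in 1 direction. Of 29 genes of sterol and fatty acid synthesis 14 were called lower and 0 higher with ob replicate 5, beside 8.53% and 7.9% of all genes. Without it 12 and 0 were called, the 12 being called in both, and the median was -0.40 (-0.27 without it). The 2 groups alone gave 3 lower, and 10 without ob replicate 5. Before cadmium 11 of the 29 were called lower and 1 higher, with a median of -0.37, beside 8.93% and 6.6% of all genes. The change of the difference was called for 0, or for 1 upward and 1 downward without ob replicate 5. Cyp51, lanosterol demethylase, read 19.2, 93.04 and 117 CPM in ob and 191, 258 and 429 CPM in b6j (-1.66 ± 0.25, adjusted p = 1.36e-05, without ob replicate 5 -1.45 ± 0.18, adjusted p = 3.11e-07). Srebf1, the regulator of fatty acid synthesis, read 47.3, 60.4 and 66.6 CPM against 69.3, 85.04 and 98.1 CPM (-0.55 ± 0.09, adjusted p = 3.06e-05, without ob replicate 5 -0.59 ± 0.09, adjusted p = 6.45e-06). Idi1, the isoprenyl isomerase, differed by -1.37 ± 0.26 (adjusted p = 3.91e-04), and -1.14 ± 0.19 (adjusted p = 2.99e-05) without ob replicate 5. All 6 ob kidneys were below every b6j kidney in these 3 genes, and Idi1 already differed before cadmium, by -1.49 (adjusted p = 9.12e-05). Idi1 reached an adjusted p of 0.0586 at the dose in the 2 groups alone with ob replicate 5.

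For fatty acid oxidation and targets of the lipid sensor PPAR-alpha, ob replicate 5 turned the balance. Of 31 genes 7 were called higher and 4 lower with it, 2 and 11 without it, and 2 and 4 in both, and the median went from 0.14 to -0.08. From the 2 groups alone came 1 and 2, and 2 and 8 without that library. Acadm, the medium-chain acyl-CoA dehydrogenase, read 293, 417 and 508 CPM against 587, 713 and 949.5 CPM (-0.81 ± 0.10, adjusted p = 6.38e-07, without ob replicate 5 -0.72 ± 0.09, adjusted p = 1.51e-07). Bdh1, which interconverts ketone bodies, read 8.13, 38.02 and 69.4 CPM against 127, 156 and 184 CPM (-1.87 ± 0.24, adjusted p = 1.25e-06, without ob replicate 5 -1.65 ± 0.15, adjusted p = 5.12e-10). Both were lower in every ob kidney. Ehhadh, a peroxisomal oxidation enzyme, held 3265 CPM in ob replicate 5 and 299.7 to 363 CPM in the other 5, against 509 to 849 CPM in b6j. Its difference went from 0.22 ± 0.37 (adjusted p = 0.733) to -1.08 ± 0.12 (adjusted p = 2.56e-08) without that library. Acot1, an acyl-CoA thioesterase, likewise went from 0.26 ± 0.40 to -1.10 ± 0.17 (adjusted p = 9.46e-06). Pdk4, the kinase that switches off pyruvate oxidation, was called higher only with it and reached 2156 CPM there and 20.3 to 33.4 CPM in the others (3.81 ± 0.81, adjusted p = 0.00125, without ob replicate 5 0.01 ± 0.27, adjusted p = 0.99). It was called neither in the 2 groups alone (adjusted p = 0.123) nor with voom (0.15, adjusted p = 0.79).

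**Figure D2:**
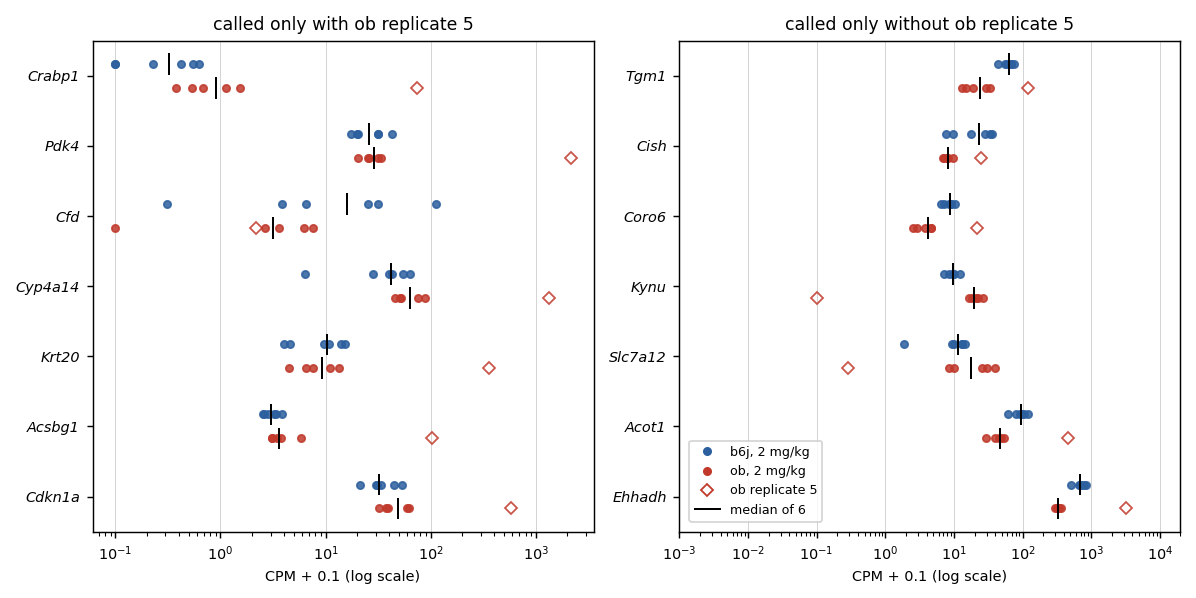
Genes called only with ob replicate 5 (left) or only without it (right), as CPM + 0.1 on a log axis; points are single kidneys at 2 mg/kg, bars are medians of 6 and the open diamond is ob replicate 5. Pdk4 is at 2156 CPM in that kidney and 20.3 to 33.4 CPM in the other 5 ob kidneys, and in Ehhadh the other 5 lie below every b6j kidney.

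Injury markers were more often called higher than lower in ob at 2 mg/kg, with fewer calls without ob replicate 5. Of 25, 12 were called higher and 0 lower with it, beside 7.9% and 8.53% of all genes. Without it 6 and 1 were called, and 6 and 0 in both. The median was 0.68 and became 0.25, and the 2 groups alone gave 0 called, and 6 higher and 1 lower without it. Before cadmium 2 of the 25 were called higher and 4 lower, beside 6.6% and 8.93% of all genes. Their median was then 0.21. The change of the difference was called for 4 upward and 0 downward, or for 3 and 0 without ob replicate 5. Clu, the secreted chaperone clusterin, read 452, 529 and 2324 CPM in ob and 281, 303 and 337 CPM in b6j. All ob kidneys were above the b6j range (1.44 ± 0.26, adjusted p = 1.66e-04, without ob replicate 5 0.82 ± 0.13, adjusted p = 2.14e-05). Spp1, osteopontin, read 1574, 1969 and 11044 CPM against 1151, 1290.5 and 1359 CPM, again without overlap (1.49 ± 0.29, adjusted p = 5.25e-04, without ob replicate 5 0.70 ± 0.13, adjusted p = 1.96e-04). Clu, Spp1 and Cdh6 were called in the 2 groups alone only without ob replicate 5, at adjusted p of 0.0605 to 0.113 with it. Cdh6, a cadherin of the developing nephron, was higher in 5 ob kidneys than in any b6j kidney and lower in replicate 5 (0.73 ± 0.19, adjusted p = 0.00642, without ob replicate 5 0.88 ± 0.16, adjusted p = 2.02e-04). Havcr1, kidney injury molecule 1, read 63.8, 133 and 530.0 CPM against 112, 152 and 232 CPM, with 2 ob kidneys above and 2 below the b6j range (0.34 ± 0.67, adjusted p = 0.777, without ob replicate 5 -0.21 ± 0.64, adjusted p = 0.875). Krt20, a keratin of damaged tubule cells, held 360.1 CPM in ob replicate 5 and 4.38 to 13.2 CPM in the other ob kidneys (2.79 ± 0.76, adjusted p = 0.0101, without ob replicate 5 -0.18 ± 0.46, adjusted p = 0.85). Krt20 was called in neither fit of the 2 groups alone (adjusted p = 0.182 with that library). Sox9, a transcription factor of regenerating tubule, was called only with that library in these fits (1.96 ± 0.50, adjusted p = 0.00649, without ob replicate 5 0.82 ± 0.38, adjusted p = 0.15), and in the 2 groups alone only without it (adjusted p = 0.102, and 0.0349).

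The p53 pathway stops the cell cycle and promotes death after DNA damage. Of 18 of its targets 12 were called higher and 0 lower with ob replicate 5, beside 7.9% and 8.53% of all genes. Without it 5 and 0 were called, all 5 being called in both. The median was 0.59 and became 0.23, and the 2 groups alone gave 1 higher, and 4 without that library. Eda2r, a death-domain receptor, read 13.2, 19.1 and 39.2 CPM against 5.43, 6.95 and 11.1 CPM, all ob kidneys being above every b6j kidney (1.59 ± 0.23, adjusted p = 9.33e-06, without ob replicate 5 1.34 ± 0.20, adjusted p = 9.14e-06). Ccng1, cyclin G1, read 458, 536 and 871 CPM against 316, 394 and 443 CPM, also apart (0.62 ± 0.13, adjusted p = 8.86e-04, without ob replicate 5 0.49 ± 0.11, adjusted p = 0.00187). Trp53inp1, a stress-induced nuclear protein, was higher by 1.13 ± 0.25 (adjusted p = 0.00175), and 0.49 ± 0.11 (adjusted p = 0.00199) without ob replicate 5. Cdkn1a, the cell cycle inhibitor p21, reached 579.5 CPM in ob replicate 5 with 31.9 to 62.6 CPM in the other ob kidneys. It was called only with it (1.92 ± 0.49, adjusted p = 0.00646, without ob replicate 5 0.38 ± 0.27, adjusted p = 0.386). Ccng1, Trp53inp1 and Cdkn1a were not called in the 2 groups alone with that library, at adjusted p of 0.0622 to 0.156.

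Conjugating enzymes attach glutathione or glucuronic acid to toxins. Lists of these and of carboxylesterases had more members called higher than lower in ob, at 2 mg/kg and before cadmium. Of 22 glutathione S-transferases 8 were called higher and 0 lower with ob replicate 5, beside 7.9% and 8.53% of all genes. Without it 10 and 0 were called, and 8 in both (median 0.19, and 0.35 without it). The 2 groups alone gave 4 higher, and 8 without that library. Before cadmium 10 of the 22 were called higher and 0 lower, with a median of 0.41, beside 6.6% and 8.93% of all genes. Mgst3, a membrane-bound member, read 151, 185 and 251 CPM in ob and 109.5, 114 and 117 CPM in b6j (0.73 ± 0.08, adjusted p = 1.64e-08, without ob replicate 5 0.64 ± 0.06, adjusted p = 5.12e-10). Gsto1, an omega-class member, read 78.2, 85.6 and 121 CPM against 43.3, 54.3 and 57.8 CPM (0.81 ± 0.11, adjusted p = 3.4e-06, without ob replicate 5 0.72 ± 0.10, adjusted p = 2.7e-06). In both genes all 6 ob kidneys were above every b6j kidney. Gsta2, an alpha-class member, was higher in 5 of 6 (0.75 ± 0.14, adjusted p = 3.48e-04, without ob replicate 5 0.86 ± 0.13, adjusted p = 7.18e-06). Of 28 glucuronosyltransferases and carboxylesterases 8 were called higher and 2 lower with ob replicate 5, 11 and 3 without it, and 8 and 2 in both. Their median was 0.07, and 0.19 without it. The 2 groups alone gave 6 and 0, and 11 and 3 without that library. Before cadmium 9 of the 28 were called higher and 4 lower, with a median of 0.35. Ugt2b34 read 228, 328 and 369 CPM against 91.4, 129 and 175 CPM (1.26 ± 0.14, adjusted p = 5.82e-08, without ob replicate 5 1.35 ± 0.13, adjusted p = 1.57e-09). Ces2g, a carboxylesterase, read 23.3, 33.2 and 68.5 CPM against 11.3, 13.6 and 17.4 CPM (1.44 ± 0.18, adjusted p = 4.26e-07, without ob replicate 5 1.20 ± 0.14, adjusted p = 5.88e-08). Ugt1a1, which conjugates bilirubin, read 5.50, 7.40 and 11.02 CPM against 1.04, 1.57 and 2.98 CPM (2.12 ± 0.34, adjusted p = 3.34e-05, without ob replicate 5 2.17 ± 0.34, adjusted p = 1.46e-05). None of these 3 overlapped between the groups. Counts within the Ugt1a cluster, whose transcripts share exons, and within the Gst, Ugt2b and Ces families are uncertain where copies are nearly identical.

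NRF2, encoded by Nfe2l2, drives antioxidant genes and is held back by Keap1. Of 25 regulators and targets 7 were called higher and 2 lower with ob replicate 5, beside 7.9% and 8.53% of all genes. Without it 7 and 0 were called, and 6 and 0 in both. Their median was 0.17, and 0.18 without it, and the 2 groups alone gave 1 higher, and 5 without that library. Before cadmium 6 of the 25 were called higher and 4 lower, with a median of -0.11, beside 6.6% and 8.93% of all genes. The change of the difference was called for 2 upward and 2 downward, with and without ob replicate 5. Nfe2l2 itself read 111, 123 and 248 CPM against 93.7, 98.9 and 107 CPM, with all ob kidneys above the b6j range (0.51 ± 0.11, adjusted p = 0.0021, without ob replicate 5 0.28 ± 0.05, adjusted p = 2.81e-04). Ephx1, the epoxide hydrolase, read 343, 474 and 819.8 CPM against 193, 217 and 257 CPM, also apart (1.21 ± 0.17, adjusted p = 5.11e-06, without ob replicate 5 1.03 ± 0.15, adjusted p = 4.25e-06). Nqo1, a quinone reductase, was higher by 0.57 ± 0.16 (adjusted p = 0.01), and 0.44 ± 0.14 (adjusted p = 0.0339) without ob replicate 5, with 3 of 6 ob kidneys above the b6j range, and was not called with voom (0.29, adjusted p = 0.158). Neither Nfe2l2 nor Nqo1 was called in the 2 groups alone with ob replicate 5 (adjusted p = 0.138 and 0.18). Other classical targets gave no call, among them Gclc, the catalytic subunit of glutathione synthesis (-0.02 ± 0.18, adjusted p = 0.97, without ob replicate 5 0.07 ± 0.19, adjusted p = 0.861). Txnrd1, thioredoxin reductase, differed by 0.17 ± 0.14 (adjusted p = 0.416), and 0.18 ± 0.14 (adjusted p = 0.441) without ob replicate 5. For the supply of NADPH, 5 of 9 genes were called higher and 1 lower with and without ob replicate 5, and 4 and 1 in both, and the 2 groups alone gave 1 and 1, and 2 and 1 without that library. Idh1, the cytosolic isocitrate dehydrogenase, was higher in 5 of 6 (0.58 ± 0.09, adjusted p = 1.04e-05, without ob replicate 5 0.68 ± 0.07, adjusted p = 1.57e-09). G6pdx, the entry enzyme of the pentose phosphate pathway, was higher in all 6 (0.50 ± 0.10, adjusted p = 7.54e-04, without ob replicate 5 0.35 ± 0.07, adjusted p = 5.36e-04), with an adjusted p of 0.0878 in the 2 groups alone with that library. Me1, malic enzyme, was lower in every ob kidney (-0.60 ± 0.09, adjusted p = 6.16e-06, without ob replicate 5 -0.53 ± 0.08, adjusted p = 4.72e-06). The core TGACNNNGC of the antioxidant response element, searched on both strands of the same promoter windows, was found in 5 of 22 NRF2 genes, 3 of 20 glutathione S-transferases and 2 of 9 NADPH genes with a window, beside 10.6% of all windows.

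Genes of glucose handling were called in both directions. Of 26 genes of insulin signalling and glucose handling 7 were called higher and 2 lower with ob replicate 5, 8 and 1 without it, and 5 and 1 in both, beside 7.9% and 8.53% of all genes. Fits of the 2 groups alone called 2 and 0, and 7 and 2 without that library. Pck1, the rate-limiting enzyme of gluconeogenesis, read 2014, 2253 and 2971 CPM in ob and 1119, 1312 and 1964 CPM in b6j. All ob kidneys lay above the b6j range (0.79 ± 0.19, adjusted p = 0.00397, without ob replicate 5 0.82 ± 0.19, adjusted p = 0.00272). Untreated kidneys differed by -0.08 (adjusted p = 0.826), and the change of the difference, 0.88 ± 0.27, was called only without ob replicate 5 (adjusted p = 0.0786, and 0.045). Slc5a1, a sodium-glucose cotransporter, was higher in all 6 (0.37 ± 0.08, adjusted p = 0.00189, without ob replicate 5 0.38 ± 0.08, adjusted p = 0.0014). Foxo1, a factor that insulin holds inactive, was higher in 3 of 6 than in any b6j kidney (0.32 ± 0.07, adjusted p = 0.00164, without ob replicate 5 0.27 ± 0.06, adjusted p = 0.00262) and was not called in the 2 groups alone with ob replicate 5 (adjusted p = 0.0831). In methionine, betaine and glycine metabolism 2 of 19 were called higher and 6 lower with ob replicate 5, 3 and 6 without it, and 2 and 6 in both. Fits of the 2 groups alone called 0 and 0, and 3 and 4 without that library. Cbs, which commits homocysteine to cysteine synthesis, read 7.76, 78.9 and 100.4 CPM against 140.4, 191 and 212 CPM, below every b6j kidney in all ob kidneys (-1.40 ± 0.26, adjusted p = 2.46e-04, without ob replicate 5 -1.15 ± 0.10, adjusted p = 1.87e-10). Ahcy, which makes homocysteine, was also lower in all 6 (-0.63 ± 0.13, adjusted p = 6.28e-04, without ob replicate 5 -0.49 ± 0.09, adjusted p = 2.27e-04). Gldc, of the glycine cleavage system, was higher in 5 of 6 (1.64 ± 0.35, adjusted p = 0.00147, without ob replicate 5 0.74 ± 0.21, adjusted p = 0.0139). With ob replicate 5 in the 2 groups alone Cbs, Ahcy and Gldc reached adjusted p of 0.0705 to 0.0938.

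Some hormone-related genes of the kidney showed separated groups as well, and others were not called. Ace, angiotensin-converting enzyme, read 47.1, 88.2 and 118 CPM in ob and 188, 223 and 249 CPM in b6j (-1.34 ± 0.15, adjusted p = 5.82e-08, without ob replicate 5 -1.21 ± 0.12, adjusted p = 5.18e-09). It was lower in every ob kidney and already lower before cadmium (-1.48, adjusted p = 3.9e-09). Of 9 genes of the renin-angiotensin system 3 were called higher and 2 lower with ob replicate 5, and 2 and 2 without it and in both. The 2 groups alone gave 0 and 1, or 1 and 1 without that library. Ren1, renin, was not called there (adjusted p = 0.468, and 0.542 without that library). Of 18 genes of vitamin D, phosphate and calcium handling 4 were called higher and 3 lower, 5 and 4 without ob replicate 5, and 3 and 3 in both. The 2 groups alone gave 2 and 0, or 4 and 5 without that library. Among all genes 7.9% were called higher and 8.53% lower. Casr, the calcium-sensing receptor, read 9.16, 29.5 and 33.4 CPM against 35.9, 49.7 and 59.2 CPM (-0.88 ± 0.19, adjusted p = 0.00154, without ob replicate 5 -0.69 ± 0.14, adjusted p = 5.94e-04). S100g, the calcium carrier calbindin-D9k, read 359.5, 417 and 508 CPM against 268, 295 and 326 CPM (0.54 ± 0.16, adjusted p = 0.0155, without ob replicate 5 0.50 ± 0.16, adjusted p = 0.0273). Neither overlapped between the groups. Among lysosomal and autophagy genes 7 of 30 were called higher and 2 lower, beside 7.9% and 8.53% of all genes, 6 and 2 without ob replicate 5, and 5 and 2 in both. Fits of the 2 groups alone called 1 and 0, and 4 and 2 without that library. Ctsd, cathepsin D, was higher in all 6 ob kidneys (0.63 ± 0.13, adjusted p = 0.00109, without ob replicate 5 0.39 ± 0.08, adjusted p = 4.4e-04). Casr and Ctsd were not called in the 2 groups alone with ob replicate 5 (adjusted p = 0.0811 and 0.0971).

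**Figure D3:**
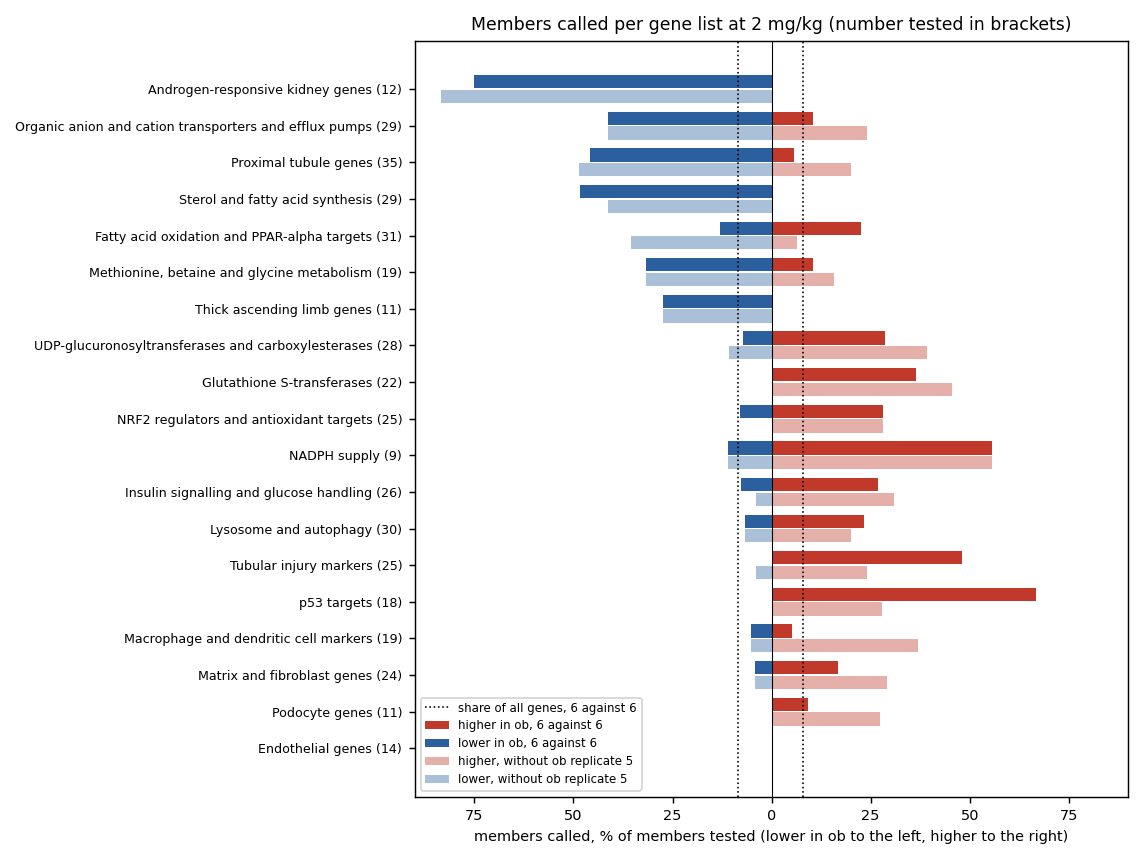
Share of tested members called in 19 gene lists, in percent, lower in ob to the left and higher to the right; full colours are 6 against 6 kidneys, pale colours are without ob replicate 5, and dotted lines mark the share of all genes called (8.53% lower, 7.9% higher). The androgen-responsive list is the longest bar to the left, and the injury and p53 bars shorten without ob replicate 5.

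Among other cell types, 1 of 19 macrophage and dendritic cell markers was called higher and 1 lower with ob replicate 5, beside 7.9% and 8.53% of all genes. Without it 7 and 1 were called, with 0 and 1 in both. The 2 groups alone gave 0 and 0, or 4 and 1 without that library. Csf1r, the receptor that sustains macrophages, was lower in every ob kidney (-0.77 ± 0.21, adjusted p = 0.0111, without ob replicate 5 -0.55 ± 0.11, adjusted p = 8.1e-04), and reached an adjusted p of 0.19 in the 2 groups alone with that library. Lyz2, lysozyme, differed by 0.58 ± 0.27 (adjusted p = 0.139), and 0.80 ± 0.20 (adjusted p = 0.00416) without ob replicate 5. The summed level of the 19 markers was 1008 to 1596 CPM in the other ob kidneys, 204 CPM in ob replicate 5 and 752 to 1070.4 CPM in b6j. Of 24 matrix and fibroblast genes 4 were called higher and 1 lower, beside the same shares of all genes. Without ob replicate 5 it was 7 and 1, and 3 and 1 in both. The 2 groups alone gave 0 and 1, or 7 and 1 without that library. The lower one was Col5a2, a fibrillar collagen chain, at 2.84, 12.1 and 14.96 CPM against 21.8, 24.96 and 28.1 CPM (-1.16 ± 0.19, adjusted p = 3.24e-05, without ob replicate 5 -0.95 ± 0.10, adjusted p = 6.9e-09). The 2 adrenal genes tested, both called lower, rested on b6j replicate 3. Cyp21a1, a steroid 21-hydroxylase, went from -3.47 to -0.49 (adjusted p = 0.697) and Star, which carries cholesterol into mitochondria, from -1.14 to 0.07 (adjusted p = 0.808) without it, and the call of Star was also lost without ob replicate 3 or 4. Neither was called in the 2 groups alone or with voom. The part of adrenal transcripts in other results was not tested.

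Untreated kidneys of the genotypes already differed at 2822 genes (15.5%), 1199 higher (6.6%) and 1623 lower (8.93%) in ob, so that 42.5% were higher. With libraries scaled by size only, 77.7% of 3881 calls were higher and the median of all genes moved from 0.03 to 0.16. Without ob replicate 5 in the shared fit, 4781 genes were called there. Of the 2043 genes called at 2 mg/kg with and without ob replicate 5, 878 were called in the same direction before cadmium (236 higher, 642 lower), 11 in the opposite direction and 1154 not. Not being called in one group does not show a change, so the difference between the 2 gaps was tested directly, and 376 genes were called (2.07%), or 758 without ob replicate 5 (4.12%). That count also moved past 1.5-fold without ob replicate 6 (748), b6j replicate 1 (244) or untreated b6j replicate 3 (216) or 5 (246). Of the 2043, 137 were called in that test in both fits, 55 upward and 82 downward.

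Some differences present before cadmium were smaller at 2 mg/kg. Prlr stood at 93.6 to 136 CPM in untreated ob and 3.09 to 14.7 CPM in untreated b6j, a difference of 4.22 ± 0.35, and its change was -3.31 ± 0.45 (adjusted p = 4.75e-05, and 1.18e-05 without ob replicate 5). Ugt1a10 went from 5.10 to 1.78 (change -3.31 ± 0.46, adjusted p = 4.79e-05) and Ugt1a2 from 6.67 to 2.64 (adjusted p = 0.0101), and the change of Ugt1a2 was not called with voom (-3.84, adjusted p = 0.228). In untreated b6j the medians of Ugt1a10 and Ugt1a2 were 0.717 and 0.179 CPM, and at the dose 9.10 and 15.5 CPM. Abcc4, an efflux pump for nucleotides and urate, read medians of 240.1 CPM in untreated ob and 48.5 CPM in untreated b6j, and 467 CPM and 413 CPM at 2 mg/kg. Its difference of 2.24 became 0.41 (change -1.83 ± 0.21, adjusted p = 3.72e-06). Abcb1a, one of the mouse P-glycoproteins, went from 1.58 to -0.35 (adjusted p = 2.68e-05). Among lower genes Cyp4a12a went from -3.23 to -1.80 (adjusted p = 0.0201) and Ccl28, a chemokine of epithelia, from -3.98 to -1.31 (adjusted p = 3.59e-04). At the dose Ccl28 was not called with voom (-1.40, adjusted p = 0.0929).

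Other differences were larger at 2 mg/kg or appeared there. Ceacam2 stood at medians of 24.6 CPM and 21.4 CPM in untreated ob and b6j and at 3.03 CPM and 18.7 CPM at 2 mg/kg, a change of -2.63 ± 0.43 (adjusted p = 6.55e-04, and 2.6e-04 without ob replicate 5). Slco4c1, a carrier of uremic toxins and digoxin, went from 0.42 to -1.97 (adjusted p = 0.00114), and Mettl7a2, a methyltransferase-like protein, from 0.26 to -2.29 (adjusted p = 0.0031). Cyp7b1 was already lower before cadmium and went from -2.36 to -4.04 (change -1.68 ± 0.40, adjusted p = 0.0193). All 4 were lower in all ob kidneys at 2 mg/kg. On the higher side Clu went from -0.06 to 1.44 (adjusted p = 0.0205, and 0.00344 without ob replicate 5), and Aldh1l2, a mitochondrial folate enzyme, from -0.72 to 0.91 (adjusted p = 0.00573). The changes of Cyp7b1 and Clu were not called in the compared groups alone (adjusted p = 0.0513 and 0.0831).

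**Figure D4:**
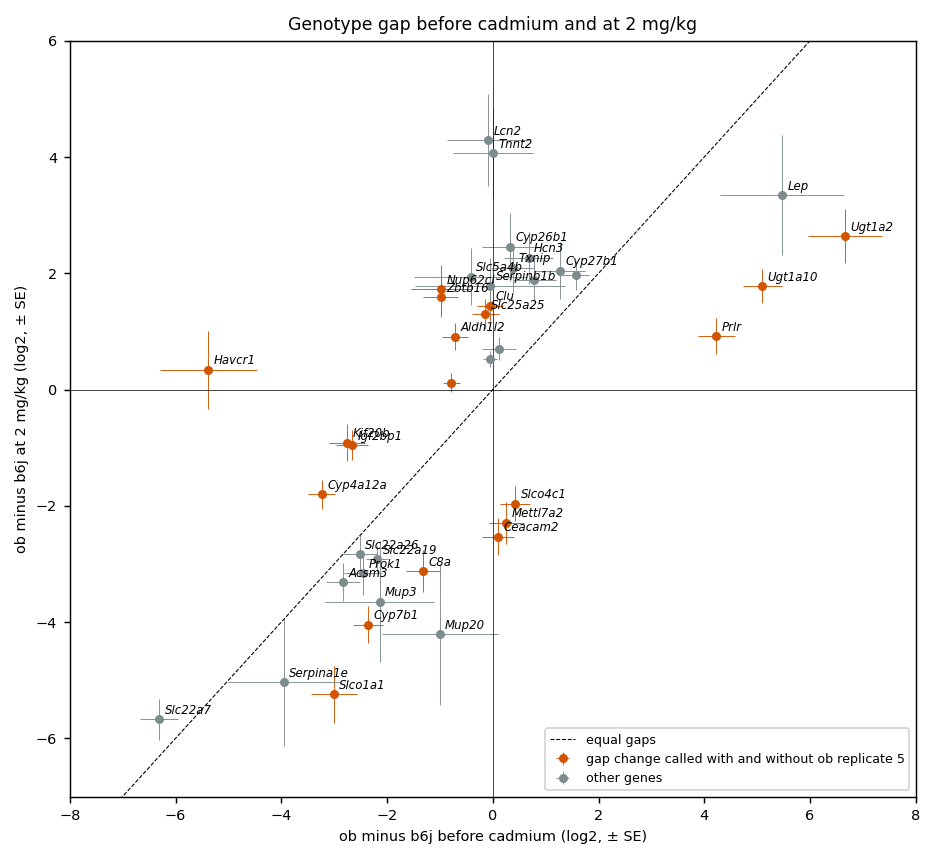
Difference between ob and b6j at 2 mg/kg against that before cadmium, both as log2 ratios with standard errors as bars, for the largest differences and gap changes; orange marks genes whose change was called with and without ob replicate 5, and the dashed line marks equal gaps. Prlr, Ugt1a2 and Ugt1a10 lie under the line at the right, and Slco4c1, Mettl7a2 and Ceacam2 are at 0.42, 0.26 and 0.10 before cadmium and at -1.97, -2.29 and -2.53 at the dose.

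Havcr1 and Hmox1 were called before cadmium and not at 2 mg/kg. Havcr1 read 0.516 to 1.18 CPM in untreated ob and 2.15 to 181 CPM in untreated b6j, a gap of -5.38 ± 0.92 (adjusted p = 5.4e-05). Its highest untreated value, 180.6 CPM, was that of b6j replicate 4, and without it the gap was -2.78 (adjusted p = 0.00109) and its change 3.13 (adjusted p = 0.018) in place of 5.73 ± 1.13 (adjusted p = 0.00446). With voom neither was called, at -3.15 (adjusted p = 0.0559) for the gap and 2.66 (adjusted p = 0.249) for the change. For Hmox1 the untreated medians were 25.3 CPM in ob and 41.6 CPM in b6j (-0.78 ± 0.16, adjusted p = 7.3e-04). The change of 0.90 (adjusted p = 0.0289) missed the threshold without that same library (0.74, adjusted p = 0.0537). It also missed it without ob replicate 3 (0.76, adjusted p = 0.0636) or b6j replicate 4 (0.83, adjusted p = 0.0545) or 5 (0.86, adjusted p = 0.052) of the dose, and in the compared groups alone (0.92, adjusted p = 0.0883).

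In both fits 11 genes were called in opposite directions before cadmium and at the dose, 2 of them pseudogenes. Zbtb16, a transcriptional repressor that glucocorticoids induce, went from -0.99 (adjusted p = 0.0413) to 1.59 (adjusted p = 0.00132), with 5 of 6 ob kidneys above the b6j range at the dose. Kif5a, a kinesin motor, went from -0.80 to 0.54 (change adjusted p = 3.82e-04) and Rpl13a, a ribosomal protein with many near-identical pseudogenes, from -0.35 to 0.44 (change adjusted p = 0.00202). Atg4a, an autophagy protease, went from -0.28 to 0.49, and Aldh1l2 is given above. The dose call of Dpys was lost without b6j replicate 4 (-0.75, adjusted p = 0.0514). Dpys, a pyrimidine-degrading enzyme, went from 0.83 to -0.86, Dram1, a p53-induced lysosomal protein, from 0.41 to -0.51 and Lmo7, a junction protein, from 0.21 to -0.27. The calls before cadmium of Zbtb16, Aldh1l2, Atg4a, Dram1, Lmo7 and Rpl13a were each lost when any of 3 or more untreated libraries was left out, for Zbtb16 at -0.83 (adjusted p = 0.108) without ob replicate 4 and for Aldh1l2 at -0.44 (adjusted p = 0.218) without b6j replicate 4. Before cadmium Zbtb16, Aldh1l2, Rpl13a and Atg4a were also not called with size-only scaling, Atg4a at -0.15 (adjusted p = 0.294). In the 2 groups alone with ob replicate 5 the dose call held for Atg4a (adjusted p = 0.0496) and was lost for Zbtb16, Aldh1l2, Kif5a, Rpl13a, Dpys, Dram1 and Lmo7, at adjusted p of 0.0662 to 0.236. Without that library it was lost there for Kif5a, Dpys and Lmo7, at adjusted p of 0.0741 to 0.1.

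Podocyte and endothelial genes, markers of the glomerular filter and of vessels, were higher in untreated ob. Of 11 podocyte genes 9 were called higher before cadmium (6.6% of all genes being called higher there) and 1 at 2 mg/kg, or 3 without ob replicate 5, and of 14 endothelial genes 9 and 0, or 0 without that library. The change itself was called, downward, for 3 podocyte and 5 endothelial genes, or 5 and 6 without ob replicate 5. Nphs1, nephrin of the slit diaphragm, went from 1.08 to 0.25 (change -0.83 ± 0.21, adjusted p = 0.0264). That call was lost without untreated ob replicate 2, untreated b6j replicate 3 or 5 or b6j replicate 1 or 6 of the dose, at adjusted p of 0.0501 to 0.056, and in the compared groups alone (-0.81, adjusted p = 0.0922). Kdr, the main receptor for vascular endothelial growth factor, went from 0.60 to -0.21 (change -0.80 ± 0.15, adjusted p = 0.0031, and 0.00118 without ob replicate 5). At the dose the summed endothelial level was 563 to 701 CPM in b6j and 397 to 760 CPM in ob, whose lowest value was that of replicate 5. Cdkn1c, a cell cycle inhibitor of podocytes, was higher in all 6 ob kidneys at the dose (0.62 ± 0.10, adjusted p = 4.98e-05, without ob replicate 5 0.58 ± 0.10, adjusted p = 6.84e-05).

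**Figure D5:**
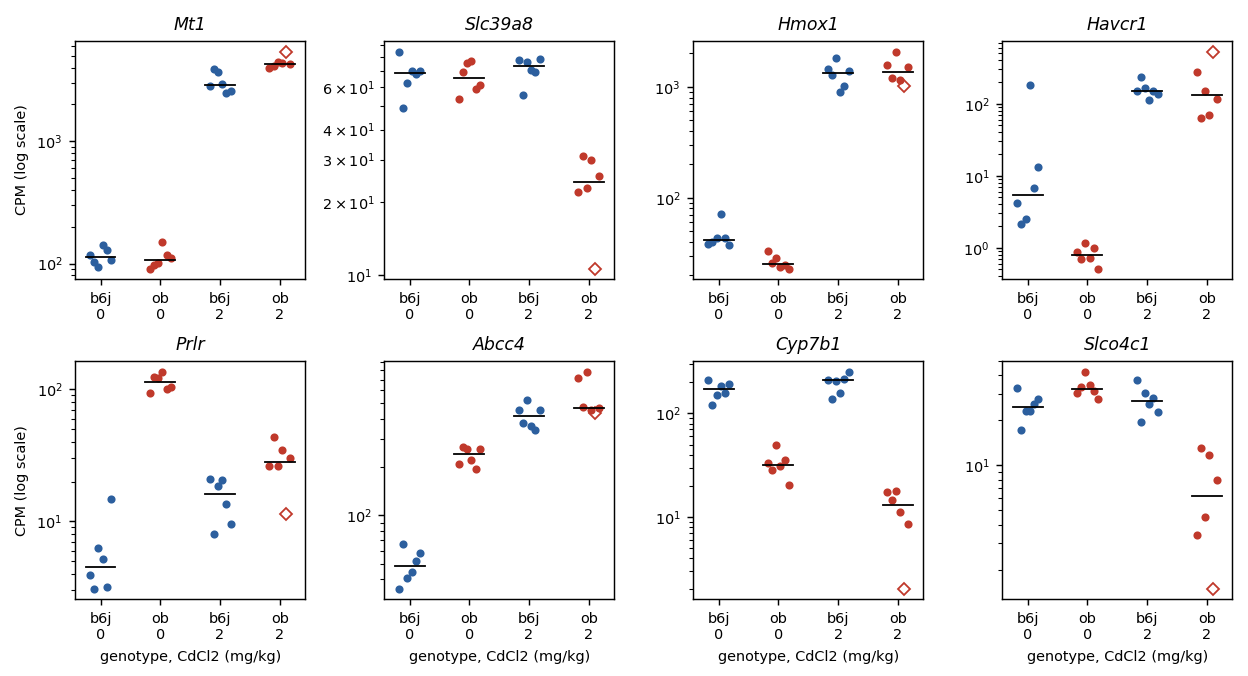
CPM on a log axis of 8 genes in untreated kidneys (0) and at 2 mg/kg (2) of b6j and ob; points are single kidneys, bars are medians of 6 and the open diamond is ob replicate 5. Slc39a8 overlaps before cadmium and is lower in all ob kidneys at the dose, the groups overlap in Abcc4 at the dose, and in Havcr1 1 untreated b6j kidney reaches 180.6 CPM.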

How the data were processed

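Gene counts of the 36 kidney libraries were read as the authors deposited them, whole-number counts per gene. Per the labels' protocols, kidneys were frozen, RNA was extracted with TRIzol and mRNA libraries were made by a standard Illumina procedure. Per the submitters' processing notes the tools were bcl2fastq, Trimmomatic, FastQC and STAR with build GRCm38. Per the file headers reads were counted with featureCounts 1.4.6-p2 on Ensembl 96 genes with strand ignored, so a gene and an overlapping antisense gene cannot be told apart. The deposited joined table, with 36 columns, was not used. All 55536 genes matched GENCODE M21 with the same start and end, and 20448 had no count.

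Libraries were scaled with TMM factors (0.892 to 1.12), genes were filtered with filterByExpr, and 6 group means were fitted to all 36 libraries with edgeR 4.0.16 in R 4.3.3 (quasi-likelihood test, Benjamini-Hochberg adjusted p below 0.05). The contrasts were ob minus b6j at 2 mg/kg, the same before cadmium, and the difference of these. Library totals ran from 26783936 to 37244058 counts, and no 2 libraries were identical. The 47 gene lists and the genes shown were chosen with earlier results of these data known, and the list of 23 liver genes after seeing these values. Named were Lep, Mt1, Mt2, Hmox1, Havcr1 and Lcn2, the 12 largest differences each way called with and without ob replicate 5 at a mean of at least 5 CPM, the 8 largest gap changes each way, genes of opposite direction, genes decided by ob replicate 5 (6 each way), and up to 6 members per list by smallest p with members that show a role. Predicted genes and pseudogenes were counted and not named. A few genes that meet these rules are not reported here.

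Alternatives were DESeq2 1.42.0, limma 3.58.1 voom with sample weights, other scalings and filters, the compared groups alone, a block on replicate number, and each library left out. The fits were tested on simulated data. Replicate numbers were not used to pair the samples in the main fit. The promoter windows came from RefSeq (GRCm38.p6).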

Additional observations from a re-analysis of the deposited data

Results flagged for a closer look

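Of 244 named genes, ob replicate 5 stood apart from its 5 group members at 87, by a gap above 0.625 of the group's range. Some of the 244 were named because that library decided their call, so the choice of genes partly sets this count. The other libraries did so at far fewer: ob replicates 1 and 3 at 1 each, b6j replicates 3 and 4 at 2 each, b6j replicates 2 and 6 at 4 each and b6j replicate 5 at 6. Chance flags about 1 in 20 groups of normally distributed values, which CPM of genes chosen this way need not be. The position of ob replicate 5 on the first principal component, 89.08, and its median Spearman correlation with its group, 0.9193 against at least 0.9843 for the other 11 libraries, also stood apart. Its mitochondrial transcripts made up 5.99% of counts, against 8.77% to 11.2% in the others. It had more than 4 times the next library's level at 152 genes, and b6j replicate 5 did so at 18.

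The difference between ob and b6j was tested as different before cadmium and at 2 mg/kg, in fits with and without ob replicate 5, at 137 genes called at the dose. At 11 genes the calls before cadmium and at the dose had opposite directions.

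At 0.5 mg/kg, a dose outside the comparison, the median of Mt1 was 2928.3 CPM in ob and 1329.5 CPM in b6j, above the untreated medians of 106 and 113 CPM.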

How the results depend on the processing

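At 2 mg/kg the compared groups alone gave 461 calls (156 higher, 305 lower), and with ob replicate 5 also left out 906 higher. Leaving out single libraries gave 2336 to 3501 calls, 1153 to 1889 higher and 1183 to 1766 lower. DESeq2 called 3355, voom 2832 and size-only scaling 3041. Before cadmium, voom gave 5629 calls (2676 higher, 2953 lower), the groups alone 5007 (2416 and 2591) and size-only scaling 3017 higher and 864 lower. Single libraries left out gave 2257 to 4781 (895 to 2166 higher, 1361 to 2615 lower), the highest without ob replicate 5 of the dose (4781, 2166 and 2615).

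The gap change was called at 748 genes by DESeq2 (456 up, 292 down), 1075 by voom (549 and 526), 590 with size-only scaling (127 and 463), 239 with no filter (108 down) and 194 with the groups alone (112 and 82). Single libraries left out gave 216 to 758, 107 to 482 up and 109 to 354 down. With the replicate number as a block, 2602 genes were called at the dose, 2692 before cadmium and 322 for the gap change, and 28 of 244 named genes lost their call. Deviations of same-numbered libraries correlated at -0.332 to 0.367, and libraries 3 and 4 alone matched their own number best, so the numbers were not read as pairs.

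Signs turned without ob replicate 5 for Krt20 (-0.18), Acot1 (-1.10), Ehhadh (-1.08) and Plin2 (-0.0499), with the groups alone and that library left out for Krt20 (-0.18), Acot1 (-1.11), Ehhadh (-1.09) and Plin2 (-0.0561), and with voom for Krt20 (-0.15), Acot1 (-1.06), Ehhadh (-1.06) and Plin2 (-0.0591). With single libraries left out they reached up to 3.06 for Krt20, 0.46 for Acot1, 0.41 for Ehhadh and 1.97 for Plin2. The gap change of Acot1 turned to -1.20 with voom and -1.24 without ob replicate 5, its highest being 0.32. Star turned to 0.0732 without b6j replicate 3 (lowest -1.30) and Alb to 1.82 without b6j replicate 5 (lowest -1.18). Of 244 named genes 39 lost and 16 gained a call without ob replicate 5, 47 lost and 12 gained one with voom, 31 lost one with no filter, and 140 of 243 lost one in the groups alone. The cause of these shifts was not tested.

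Depth limits genes near the worth of 3 reads, 0.0851 to 0.11 CPM, as with Akr1c18 in ob. Bulk libraries, 6 per group and one far from its group, set the precision of the rest.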
